A study of Mus musculus with 2 samples.

Results

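Mitosis and chromosome segregation genes were described in mouse bone marrow-derived dendritic cells exposed to UNE-C1 and in control cells. The group was a list of 60 genes matched by symbol in the deposited counts, out of 23238 symbols, with the reads of repeated symbols to be summed, although none of the 60 was repeated. All 60 had a read, and the 57 with 50 or more reads in either library were described in full. The UNE-C1 group was 1 library from cells given 100 nM UNE-C1 for 24 h, and the control group was 1 library from cells named as control in their title. The treatment text of both samples is the same, naming UNE-C1, so the groups rest on the titles, and what the control cells received is not stated. Both cultures came from marrow of female C57BL/6 mice aged 7 weeks, were grown with 20 ng/ml GM-CSF that was renewed on day 3, and were collected on day 6 as non-adherent or loosely attached immature cells. UNE-C1, a part of the cysteinyl-tRNA synthetase protein, is known as a ligand of Toll-like receptors. With 1 library per group no p-value was computed, and every interval given is an exact 95% interval that covers counting error only.

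Mitosis is driven by the kinase CDK1 with its cyclin A and B partners. Chromosomes are compacted by condensin and attach through kinetochores to spindle microtubules, the spindle checkpoint holds the anaphase-promoting complex until all are attached, and the cell then divides. Transcripts of these proteins accumulate in G2 and mitosis of cycling cells and are low in cells that have left the cycle, through promoters that often carry CCAAT boxes and a cell cycle homology region. In marrow cultures with GM-CSF, dividing myeloid precursors give rise to dendritic cells, macrophages and granulocytes.

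The UNE-C1 library held 15975821 reads and the control library 14857198. Levels are in CPM, counts relative to library size after TMM scaling. The libraries held the defining transcripts of antigen-presenting cells at high levels, with Cd74 at 41150 reads in the UNE-C1 library and 48646 in the control library. The dendritic cell markers Zbtb46 (62 reads in each library) and Flt3 (62 in the UNE-C1 and 143 in the control library) were low, and Cd209a had 0 reads in both. Other markers of the same list were not low. Itgax had 3493 reads in the UNE-C1 and 12693 in the control library, and Ccr7 had 6227 and 5080. Some markers of mature neutrophils were also abundant, with S100a8 at 18226 reads in the UNE-C1 and 50582 in the control library, and S100a9 at 17596 and 51594. Another of that list, Csf3r, had 39 and 97. Lymphocyte markers summed to 10 and 41 reads in the UNE-C1 and the control library.

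The RefSeq promoter windows of 6 genes are shown as description only. Ccnb2, Ccnb1, Plk1 and Cdk1 are core drivers of mitosis whose transcripts were far lower in the UNE-C1 library. Cks1b and Cks2 are a related pair that differed. Whether the sequences bear on the levels was not tested. Each window runs from 250 bases before to 50 bases after the start, in the direction of the gene. Capitals mark the CCAAT box (CCAAT, or ATTGG on the other strand), the cell cycle homology region (TTTGAA or TTCAAA) and, in Cdk1, an E2F-type site (TTTCGCGC).
Ccnb2 (GRCm38.p6, chr9:70421505-70421804, minus strand): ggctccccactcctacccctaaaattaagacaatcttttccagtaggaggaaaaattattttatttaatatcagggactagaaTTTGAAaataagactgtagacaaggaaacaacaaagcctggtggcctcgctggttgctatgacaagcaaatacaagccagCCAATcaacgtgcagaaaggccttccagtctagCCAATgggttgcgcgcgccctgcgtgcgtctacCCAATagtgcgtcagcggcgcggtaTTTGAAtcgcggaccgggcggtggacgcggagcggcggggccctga
Ccnb1 (GRCm38.p6, chr13:100786437-100786736, minus strand): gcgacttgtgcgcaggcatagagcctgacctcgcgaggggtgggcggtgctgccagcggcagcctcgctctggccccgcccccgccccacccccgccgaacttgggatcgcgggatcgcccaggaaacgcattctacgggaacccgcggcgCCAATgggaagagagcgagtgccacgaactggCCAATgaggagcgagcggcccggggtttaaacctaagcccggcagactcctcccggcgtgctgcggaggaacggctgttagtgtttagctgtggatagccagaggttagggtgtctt
Plk1 (GRCm38.p6, chr7:122159185-122159484, plus strand): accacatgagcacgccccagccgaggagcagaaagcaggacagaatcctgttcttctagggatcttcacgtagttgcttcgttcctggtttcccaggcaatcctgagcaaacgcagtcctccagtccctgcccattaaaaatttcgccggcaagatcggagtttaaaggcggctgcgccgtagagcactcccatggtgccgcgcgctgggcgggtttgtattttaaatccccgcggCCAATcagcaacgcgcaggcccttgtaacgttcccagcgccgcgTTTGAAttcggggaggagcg
Cdk1 (GRCm38.p6, chr10:69352863-69353162, minus strand): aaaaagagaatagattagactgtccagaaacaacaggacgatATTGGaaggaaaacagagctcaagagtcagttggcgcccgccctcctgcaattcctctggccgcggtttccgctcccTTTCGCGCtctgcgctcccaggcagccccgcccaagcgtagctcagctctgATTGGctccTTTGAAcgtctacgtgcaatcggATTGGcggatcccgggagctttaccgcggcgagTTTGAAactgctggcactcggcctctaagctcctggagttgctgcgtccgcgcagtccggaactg
Cks1b (GRCm38.p6, chr3:89418242-89418541, minus strand): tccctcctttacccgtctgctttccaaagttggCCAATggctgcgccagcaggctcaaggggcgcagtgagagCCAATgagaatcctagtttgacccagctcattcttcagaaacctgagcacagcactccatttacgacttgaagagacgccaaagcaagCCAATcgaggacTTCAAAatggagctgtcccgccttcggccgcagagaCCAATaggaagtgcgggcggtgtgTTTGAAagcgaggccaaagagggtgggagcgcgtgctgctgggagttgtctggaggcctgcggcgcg
Cks2 (GRCm38.p6, chr13:51644982-51645281, plus strand): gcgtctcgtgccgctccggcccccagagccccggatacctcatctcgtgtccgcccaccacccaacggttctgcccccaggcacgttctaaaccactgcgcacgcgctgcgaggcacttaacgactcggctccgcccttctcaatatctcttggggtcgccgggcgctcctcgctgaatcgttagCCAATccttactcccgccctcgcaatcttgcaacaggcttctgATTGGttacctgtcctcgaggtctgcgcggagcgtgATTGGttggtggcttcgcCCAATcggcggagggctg
The letters TTTGAA occur in the windows of Ccnb2, Plk1, Cdk1 and Cks1b and not in those of Ccnb1 and Cks2, while CCAAT occurs in all 6. In Ccnb2 the CCAAT letters begin 87, 54 and 21 bases before the start, and in Ccnb1 99 and 67 bases before it. Cks1b has CCAAT 4 times before the start. Cks2 has it 65 and 22 bases before the start and 15 and 33 bases after it.

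Windows were found for 50 of the 60 genes; Ccna2, Aurkb, Cdca2, Kif20a, Tpx2, Spc24, Pbk, Cdc25c, Smc4 and Stmn1 had none in the table. Searched on both strands, CCAAT stood in 37 of the 50 windows (74%), against 37.9% of all 27018 windows of the same length, and stood there at least 2 times in 26 (52%), against 12.2%. TTTGAA stood in 36 (72%, against 18.1%) and TTCGAA in 5 (10%, against 1.57%). TTTGAA or TTCGAA stood in 39 (78%, against 19.4%). The E2F-type letters TTTGGCGC, TTTCGCGC or TTTCCCGC stood in 4 (8%, against 1.91%). None of these letter strings holds another. Among genes past the read floor, TTTGAA or TTCGAA stood in 32 of 41 genes that were at least 2-fold lower and in 5 of the 7 that were not, so that the letters were common in both. CCAAT stood in 29 of the 41 and in 6 of the 7, and at least 2 times in 19 and in 6. These are matches of letters and not measured binding sites.

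Summed over its genes, each of the 11 mitotic roles was lower in the UNE-C1 library. The 60 genes together took 9334 reads in the UNE-C1 library and 29698 in the control library, which is 0.0584% of reads (interval 0.0572 to 0.0596) and 0.200% (0.198 to 0.202). On the scaled level they summed to 658 CPM in the UNE-C1 library and 1775 CPM in the control library, so that 37.1% of the control level was left. H2afz, Smc4 and Bub3, the most abundant members, carried much of what remained: without them the sums were 263 and 1148 CPM in the UNE-C1 and the control library, and 22.9% was left. In bulk RNA, fewer dividing cells and less of these transcripts per cell cannot be told apart.

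Fold changes are given on the log2(CPM + 1) scale as UNE-C1 minus control, which understates the change of genes with few reads. Of the 57 genes past the floor, 46 were at least 2-fold lower on this scale, 0 were 2-fold higher, and their median was -2.15. Over the 10469 genes past the same floor, 9.42% were at least 2-fold lower and 9.31% at least 2-fold higher, and the median was -0.00. At 4-fold, 34 of the 57 were lower (1.76% of all genes past the floor), and at 8-fold 10 were lower (0.353%). The floor bears on these counts, because 33 of the 57 passed it in the control library and not in the UNE-C1 library. Such genes had to have fewer reads in the UNE-C1 library, by any amount. With no floor, 48 of the 60 were at least 2-fold lower, against 7.21% of the 15848 genes with a read, and 0 were at least 2-fold higher, against 6.82%. With a floor of 50 reads in the mean of both libraries, which treats them alike, 41 of 52 were lower (8.5% of 10069 genes) and 0 higher (9.16%). Of the 24 genes with 50 or more reads in both libraries, 13 were at least 2-fold lower, against 6.08% of 9355 genes, 0 were at least 2-fold higher, against 8.32%, and their median was -1.48. With scaling by total counts, the median of all genes past the floor moved to -0.33. Of the 57 genes, 51 were then at least 2-fold lower, against 16.2% of all, and 0 at least 2-fold higher, against 6.28%.

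**Figure D1:**
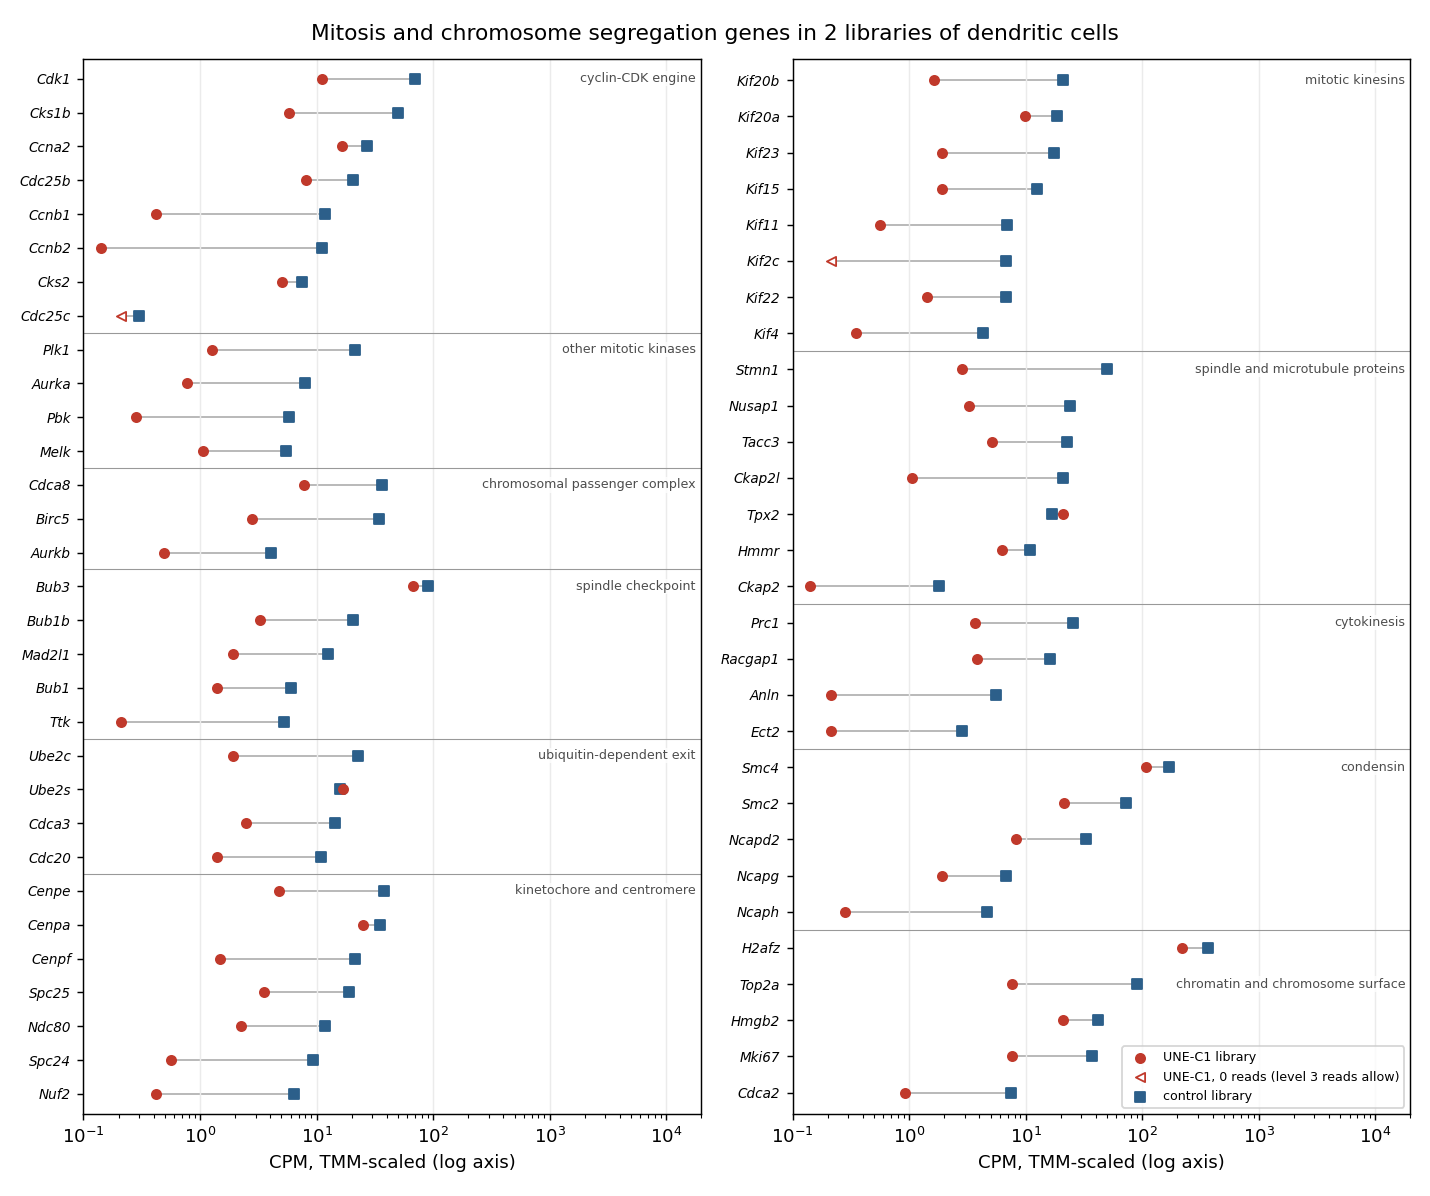
Level of each of the 60 genes in the UNE-C1 library (red circles) and the control library (blue squares), in CPM on a log axis, grouped by role and ordered by control level. The red circle lies left of the blue square for every gene except Tpx2 and Ube2s, and open triangles mark Kif2c and Cdc25c, without a read after UNE-C1, at the 0.211 CPM that 3 reads would give.

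The engine of mitosis, cyclin-dependent kinase 1 and its partners, was at least 2-fold lower in 5 of its 7 genes past the floor, beside 9.42% of all genes. Of the 7, 2 passed the floor in the control library only. Ccnb2, a B-type cyclin (chromosome 9, 70407692 to 70421547, minus strand; positions are from GENCODE M21 on GRCm38), had 2 reads in the UNE-C1 library and 185 in the control library, 78.4-fold lower (21.4 to 652). Ccnb1, the main mitotic cyclin (chromosome 13, 100778650 to 100786570, minus strand), had 6 reads in the UNE-C1 library and 198 in the control library, 28.0-fold lower (12.6 to 77.1). B-type cyclin transcripts were thus close to the limit of detection after UNE-C1. Cdk1, the kinase they activate (chromosome 10, 69335146 to 69352938, minus strand), had 159 reads, or 11.2 CPM, in the UNE-C1 library and 1160 reads, or 69.3 CPM, in the control library. It was 6.18-fold lower (5.24 to 7.35). Ccna2, the cyclin of S phase and early mitosis, had 234 reads in the UNE-C1 library and 453 in the control library, 1.64-fold lower (1.40 to 1.93). Within each library, reads of Ccnb1 per read of Ccna2 were 0.0256 with UNE-C1 and 0.437 in the control, a 17.0-fold lower ratio (7.51 to 47.6) that needs no scaling between libraries. Exons of Exosc9 on the opposite strand overlap 510 of the last 1000 exon bases of Ccna2, so Ccna2 reads may include some of Exosc9.

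The small CDK-binding subunits Cks1b and Cks2 differed. Cks1b (chromosome 3, 89415472 to 89418383, minus strand) had 82 reads in the UNE-C1 library and 844 in the control library, 8.72-fold lower (6.95 to 11.1). Cks2 (chromosome 13, 51645232 to 51650660, plus strand) had 72 reads in the UNE-C1 library and 125 in the control library, 1.47-fold lower (1.09 to 2.0). There were 1.14 Cks1b reads per Cks2 read in the UNE-C1 library and 6.75 in the control library, a 5.93-fold lower ratio (4.02 to 8.70). The copy Cks1brt is counted apart in the files, and no source used here says how reads shared between copies were treated. Cdc25b, a phosphatase that activates CDK1, had 116 reads in the UNE-C1 library and 344 in the control library, 2.51-fold lower (2.03 to 3.13). Its relative Cdc25c was nearly absent, with 0 reads in the UNE-C1 library and 5 in the control library, which does not allow a fold to be read.

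All 4 of the other mitotic kinases were at least 2-fold lower, beside 9.42% of all genes, and all 4 passed the floor in the control library only. Plk1, the polo kinase that promotes mitotic entry and spindle assembly (chromosome 7, 122159439 to 122169873, plus strand), had 18 reads in the UNE-C1 library and 360 in the control library, 17.0-fold lower (10.6 to 28.9). Aurka, the centrosomal Aurora kinase, had 11 and 134 reads in the UNE-C1 and the control library, 10.3-fold lower (5.59 to 21.2). The mitotic kinase Pbk had 4 reads in the UNE-C1 library and 98 in the control library, and Melk 15 and 91. The sum of the 4 was 3.38 CPM in the UNE-C1 library and 40.8 CPM in the control library, leaving 8.29% of the control level, the lowest share of the 11 roles.

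The chromosomal passenger complex corrects attachments of chromosomes to the spindle, and its 3 members here were lower together. Birc5, which encodes survivin, had 40 reads in the UNE-C1 library and 575 in the control library, 12.2-fold lower (8.84 to 17.2). Aurkb, its kinase, had 7 and 68 reads in the UNE-C1 and the control library, and Cdca8, which encodes borealin, had 111 and 614. The scaffold of the complex, Incenp, which is not among the 60 genes, did not share the size of this difference, with 517 reads in the UNE-C1 library and 923 in the control library, 1.51-fold lower (1.36 to 1.69). Relative to Incenp, Birc5 reads were 8.05-fold lower (5.72 to 11.6), Aurkb reads 5.44-fold lower (2.48 to 14.1) and Cdca8 reads 3.10-fold lower (2.45 to 3.93).

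Of the 5 spindle checkpoint genes, 4 were at least 2-fold lower, beside 9.42% of all genes. The same 4 passed the floor in the control library only and so had to have fewer reads in the UNE-C1 library. Bub1b, which encodes BubR1, had 46 reads in the UNE-C1 library and 344 in the control library, 6.34-fold lower (4.65 to 8.82). Ttk, the kinase also called Mps1, had 3 and 88 reads in the UNE-C1 and the control library, 24.9-fold lower with a wide interval (8.23 to 123). Mad2l1, which encodes Mad2, had 27 and 209, and Bub1 had 20 and 101. Bub3, which also has a role outside mitosis, was the exception, at 67.7 CPM in the UNE-C1 library and 90.8 CPM in the control library, 1.34-fold lower (1.24 to 1.46). Per read of Bub3, the other 2 Bub genes and Mad2l1 were 3.19-fold (Bub1, 1.95 to 5.48), 4.73-fold (Bub1b, 3.43 to 6.65) and 4.89-fold (Mad2l1, 3.24 to 7.66) lower.

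Exit from mitosis requires ubiquitin chains that the anaphase-promoting complex builds with the enzymes Ube2c and Ube2s and the activator Cdc20. Ube2c, which starts chains, had 27 reads in the UNE-C1 library and 381 in the control library, 12-fold lower (8.09 to 18.4). Ube2s, which extends them, had 237 reads, or 16.7 CPM, in the UNE-C1 library and 266 reads, or 15.9 CPM, in the control library, a ratio of 1.05 (0.879 to 1.26) that was below 1 with total counts. The pair that works on the same substrates therefore differed, with 0.114 Ube2c reads per Ube2s read in the UNE-C1 library and 1.43 in the control library. Cdc20 had 20 reads in the UNE-C1 library and 184 in the control library, 7.80-fold lower (4.91 to 13.1). Fzr1, the activator used after mitosis and in resting cells, and not among the 60 genes, was at 52.9 CPM in the UNE-C1 library and 32.1 CPM in the control library, 1.65-fold higher (1.47 to 1.85). Reads of Cdc20 per read of Fzr1 were 12.9-fold lower (7.95 to 21.8). Cdca3, a trigger of mitotic entry, had 35 and 240 reads in the UNE-C1 and the control library.

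Of the 7 kinetochore and centromere genes, 6 were at least 2-fold lower, beside 9.42% of all genes, and 4 of the 7 passed the floor in the control library only. The motor Cenpe had 67 reads in the UNE-C1 library and 636 in the control library, 8.05-fold lower (6.25 to 10.5), and the outer kinetochore protein Cenpf 21 and 357, 14.4-fold lower (9.28 to 23.6). Cenpa, the histone H3 variant that marks centromeres through the whole cycle, had 354 reads in the UNE-C1 library and 587 in the control library, 1.41-fold lower (1.23 to 1.61). The 4 subunits of the NDC80 complex, which holds microtubules at the kinetochore, were all lower. Ndc80 and Spc25 were lower by like factors, with 32 and 50 reads in the UNE-C1 library against 196 and 316 in the control library, and the reads of Ndc80 per read of Spc25 had a UNE-C1 over control ratio of 1.03 (0.618 to 1.70). Nuf2 had 6 reads in the UNE-C1 library and 108 in the control library, and Spc24 8 and 157. Reads of Nuf2 per read of Ndc80 were 2.94-fold lower (1.16 to 8.85) and reads of Spc24 per read of Spc25 3.11-fold lower (1.41 to 7.76), both on few reads.

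Mitotic kinesins, the motors that build the spindle and move chromosomes, were at least 2-fold lower in 7 of 8 genes and at least 4-fold lower in 5, on the log2(CPM + 1) scale. Of all genes past the floor, 9.42% and 1.76% were. The same 7 kinesins passed the floor in the control library only and so had to have fewer reads in the UNE-C1 library. Kif2c, a microtubule depolymerase at centromeres (chromosome 4, 117159639 to 117182639, minus strand), had 0 reads in the UNE-C1 library and 114 in the control library. With a count of 0 no single fold can be given, and the exact interval put Kif2c at least 25.8-fold lower. Kif20b, a motor of cytokinesis, had 23 and 349 reads in the UNE-C1 and the control library, 12.9-fold lower (8.43 to 20.6). Kif11, which pushes spindle poles apart, had 8 and 115, Kif23 27 and 293, Kif15 27 and 210, Kif22 20 and 113, and the chromosome-bound Kif4 5 and 72. Kif20a, a motor of the central spindle, stood apart with 139 reads in the UNE-C1 library and 311 in the control library, 1.90-fold lower (1.55 to 2.33). Its last 1000 bases of exon are overlapped by exons of Cdc23 on the opposite strand, and Cdc23 had nearly the same reads, 135 in the UNE-C1 library and 316 in the control library. No source used here says whether the counting used strand, so reads of the 2 genes may not be told apart.

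Of the 6 spindle and microtubule genes past the floor, 4 were at least 2-fold lower, beside 9.42% of all genes. Of the 6, 3 passed the floor in the control library only. Stmn1, which encodes the microtubule destabilizer stathmin (chromosome 4, 134468320 to 134473843, plus strand), had 40 reads in the UNE-C1 library and 834 in the control library with a log2 fold change of -3.73, or 17.7-fold lower (12.9 to 24.9). Ckap2l, a spindle protein, had 15 and 352 reads in the UNE-C1 and the control library, 19.9-fold lower (11.9 to 35.9), and Nusap1, which bundles spindle microtubules, 46 and 404. Tacc3, which stabilizes spindle fibres, had 73 reads in the UNE-C1 library and 377 in the control library. Tpx2, the spindle factor that activates Aurora A (chromosome 2, 152847964 to 152895321, plus strand), went the other way on the TMM scale, with 294 reads, or 20.7 CPM, in the UNE-C1 library and 279 reads, or 16.7 CPM, in the control library. Its ratio was 1.24 (1.05 to 1.47), and its log2 fold change turned to -0.028 with total counts. Aurka reads per Tpx2 read were 0.0374 in the UNE-C1 library and 0.480 in the control library, 12.8-fold lower (6.74 to 26.8). Hmmr, a spindle-associated hyaluronan receptor, had 89 and 182 reads in the UNE-C1 and the control library, 1.73-fold lower (1.34 to 2.26). Ckap2 was under the floor, with 2 and 30 reads.

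Cytokinesis genes were lower throughout. Prc1, which bundles the central spindle, had 52 reads in the UNE-C1 library and 426 in the control library, 6.94-fold lower (5.20 to 9.45). Anln, which encodes the contractile ring protein anillin, had 3 and 92 reads in the UNE-C1 and the control library, 26-fold lower with a wide interval (8.62 to 128). Racgap1, which forms centralspindlin with Kif23, had 54 and 268, 4.21-fold lower (3.13 to 5.75), and Kif23 was lower than Racgap1 by a further factor of 2.19 (1.31 to 3.72). Ect2, the exchange factor that centralspindlin recruits, lay just outside the floor with 3 and 47 reads in the UNE-C1 and the control library. Just inside it were Aurkb and Kif4, at 68 and 72 reads in the control library.

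**Figure D2:**
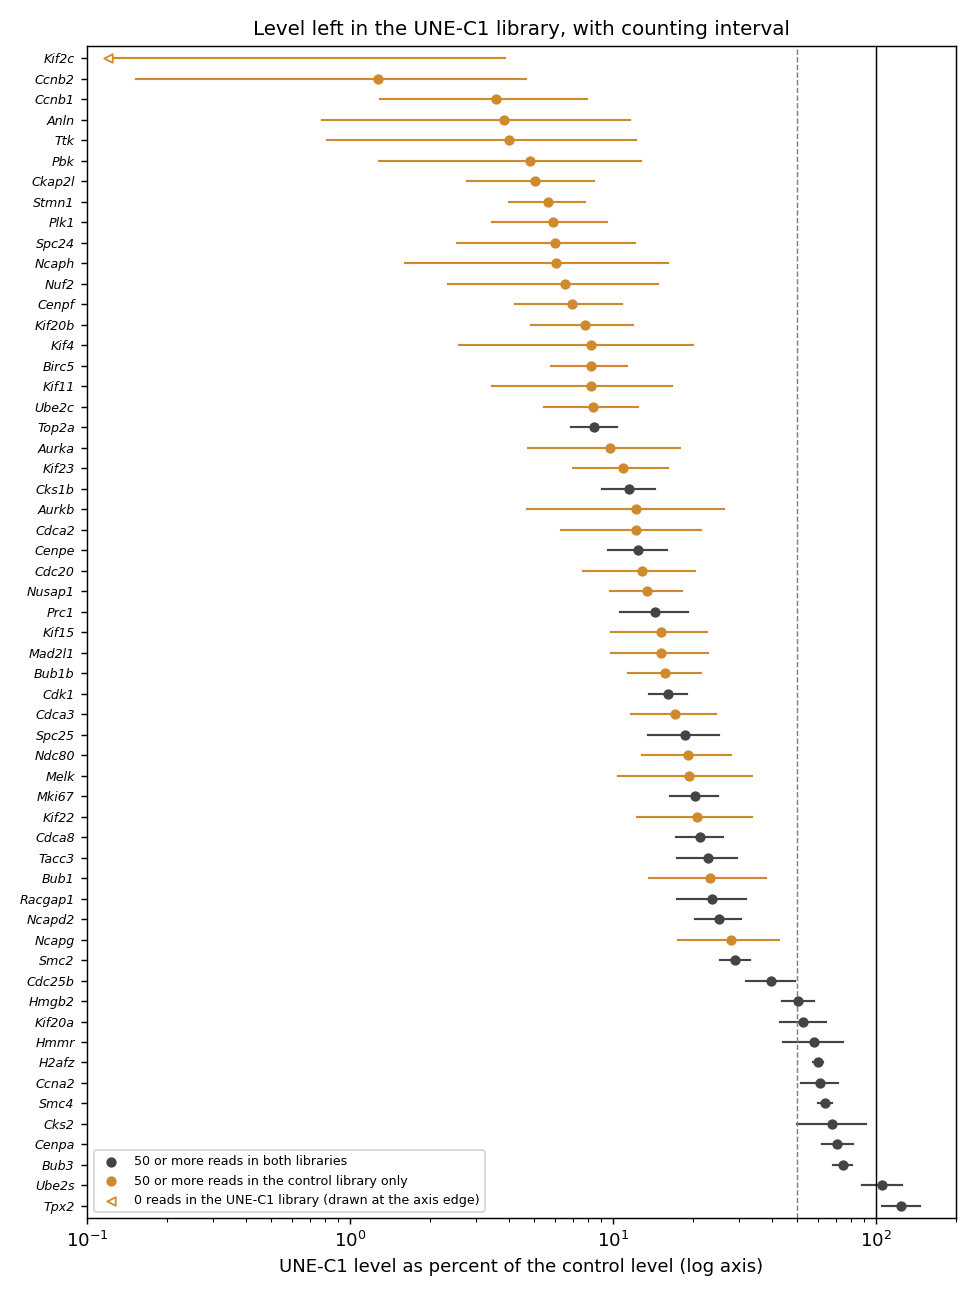
Level in the UNE-C1 library as a percent of the control level, on a log axis, for the 57 genes past the floor, with exact 95% intervals for counting error. Dark points passed the floor in both libraries and orange points in the control library only, and the open triangle of Kif2c, at 0 UNE-C1 reads, is drawn at the axis edge; the lines mark 50% (dashed) and 100%, and Tpx2 at 124% and Ube2s at 105% are the points right of the 100% line, where DESeq2 size factors also put them and total counts do not.

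The 5 subunits of condensin I, which compacts mitotic chromosomes, differed by subunit. Smc2 had 299 reads in the UNE-C1 library and 1214 in the control library, 3.44-fold lower (3.03 to 3.92), and its partner ATPase Smc4 had 1529 and 2825, 1.57-fold lower (1.47 to 1.67). The non-SMC subunits Ncapd2, Ncapg and Ncaph had 118, 27 and 4 reads in the UNE-C1 library, against 554, 114 and 78 in the control library. Of the matching subunits of condensin II, which are not among the 60 genes, Ncapd3 had 92 and 262 reads in the UNE-C1 and the control library, 2.41-fold lower (1.90 to 3.10), and Ncapg2 62 and 137, 1.87-fold lower (1.38 to 2.57). Ncaph2 was not lower on the TMM scale, at 61.4 CPM in the UNE-C1 library and 57.5 CPM in the control library. Set against its condensin II counterpart, Ncaph was 17.6-fold lower (6.57 to 66.6), Ncapg 1.91-fold lower (1.11 to 3.34) and Ncapd2 1.65-fold lower (1.19 to 2.27). The last exons of Ncapg overlap those of Lcorl, with 144 and 225 reads, on the opposite strand.

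Of the 5 chromatin genes, 3 were at least 2-fold lower, beside 9.42% of all genes, and 1 of the 5 passed the floor in the control library only. Top2a, the topoisomerase that untangles sister chromosomes (chromosome 11, 98992943 to 99024189, minus strand), had 109 reads, or 7.68 CPM, in the UNE-C1 library and 1518 reads, or 90.7 CPM, in the control library. Mki67, which encodes the proliferation antigen Ki-67 (chromosome 7, 135689784 to 135716361, minus strand), had 107 and 619 reads in the UNE-C1 and the control library, 4.90-fold lower (3.99 to 6.08). Cdca2, which brings phosphatase to chromosomes as they leave mitosis, had 13 and 126. H2afz, which encodes the histone variant H2A.Z and is used on chromatin of all cells (chromosome 3, 137864487 to 137866922, plus strand), was at 220 CPM in the UNE-C1 library and 367 CPM in the control library, 1.67-fold lower (1.60 to 1.74). It made up 33.4% of the reads of the 60 genes in the UNE-C1 library and 20.7% in the control library. Hmgb2, a DNA-bending protein, had 297 and 696 reads in the UNE-C1 and the control library, 1.99-fold lower (1.73 to 2.28).

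Across the 57 genes, 20 were left at under 10% of the control level, 22 at 10% to 25%, 4 at 25% to 50% and 9 at 50% to 100%. For 46 genes the counting interval lay wholly under 50%. The interval of Ube2s held 100% and that of Tpx2 lay above it, with TMM scaling. The 19 genes with the fewest control reads (68 to 184) were left at a median of 9.68%, and the 19 with the most (381 to 6142) at 20.4%. Spearman's rho between control reads and the share left was 0.34 over the 57 genes, which share both libraries. Control reads also enter the share left as its divisor, so the 2 are linked by construction and rho is description only. Of the 11 genes that were not 2-fold lower, Ccna2, Kif20a and Ube2s are overlapped near their end by exons of a gene on the opposite strand. The overlap covers 510, 1000 and 183 of their last 1000 exon bases. The overlapping genes were Exosc9 (269 and 334 reads in the UNE-C1 and the control library), Cdc23 and the ribosomal protein gene Rpl28 (1944 and 4516). No such overlap was found for Cks2, Bub3, Cenpa, Tpx2, Hmmr, Smc4, Hmgb2 and H2afz. Of the genes that were at least 2-fold lower, Cdc20, Ncapg, Prc1 and Ube2c overlap a gene counted in the files. The part of these overlaps in the values was not tested.

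**Figure D3:**
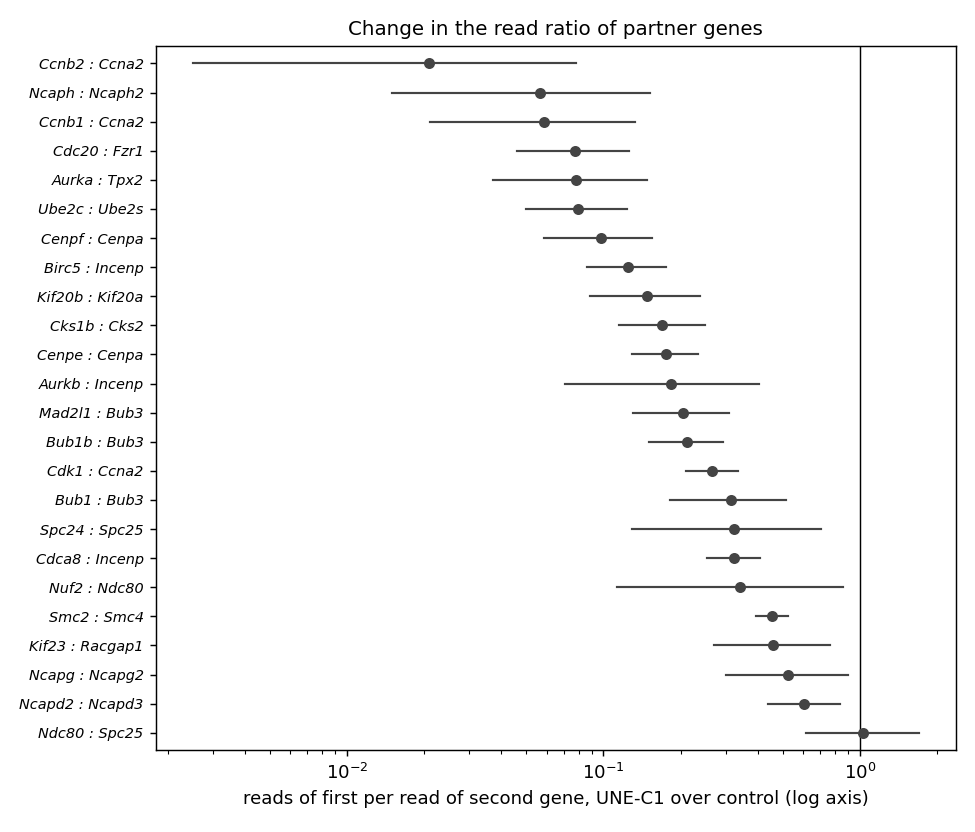
Reads of the first gene per read of the other in the UNE-C1 library, divided by the same in the control library, for 24 pairs of partner or related genes, on a log axis with exact 95% counting intervals. The pairs were chosen after values were seen, mostly with the more reduced gene first, so the side of 1 on which they lie is no result; the interval of Ndc80 and Spc25 holds 1.

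Other mitosis genes outside the 60 varied by kind. Of 112 further symbols in 5 lists, 105 were in the files and 87 passed the floor. Of the 87, 34 were at least 2-fold lower and 1 was 2-fold higher (median -0.52), beside the 9.42% and 9.31% of all genes above. Here too the floor bears on the counts, since 29 of the 87 passed it in the control library only. On the list of passenger, checkpoint, securin and separase genes, 9 of 16 were at least 2-fold lower, and 5 of the 16 passed the floor in the control library only. Sgol1, the shugoshin that protects cohesion, had 5 reads in the UNE-C1 library and 81 in the control library, Sgol2a 21 and 150, and Pkmyt1, a kinase that inhibits CDK1, 103 and 515. The gene that was 2-fold higher was Pttg1, which encodes securin, the inhibitor of separase. It was at 186 CPM in the UNE-C1 library and 59.4 CPM in the control library, 3.13-fold higher (2.90 to 3.37), while separase itself, Espl1, had 12 and 96 reads, 6.78-fold lower (3.71 to 13.6).

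Among 21 further kinetochore genes, 11 were at least 2-fold lower, beside 9.42% of all genes. Of the 21, 11 passed the floor in the control library only and so had to have fewer reads in the UNE-C1 library. They included Cenpm, at 1 read in the UNE-C1 library and 121 in the control library, Casc5 at 4 and 86, Ska1 at 11 and 122 and Cenph at 9 and 93. Among 20 further kinesin, spindle and cytokinesis genes, of which again 11 passed in the control library only, 11 were at least 2-fold lower, with Aspm, which focuses spindle poles, at 2 and 161 reads, Cep55, needed for abscission, at 8 and 173, Kif14 at 1 and 94 and Tacc2 at 24 and 221. On the list of anaphase-promoting complex subunits and their regulators, where 1 of 16 genes passed in the control library only, 1 of 16 was at least 2-fold lower, a share near that of all genes. It was the inhibitor Fbxo5 with 28 and 187 reads in the UNE-C1 and the control library (list median -0.04). Of 14 cohesin and condensin genes 2 were at least 2-fold lower, Cdca5 and Ncapd3 (list median -0.17), also near that share. The lists were not compared by a test.

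**Figure D4:**
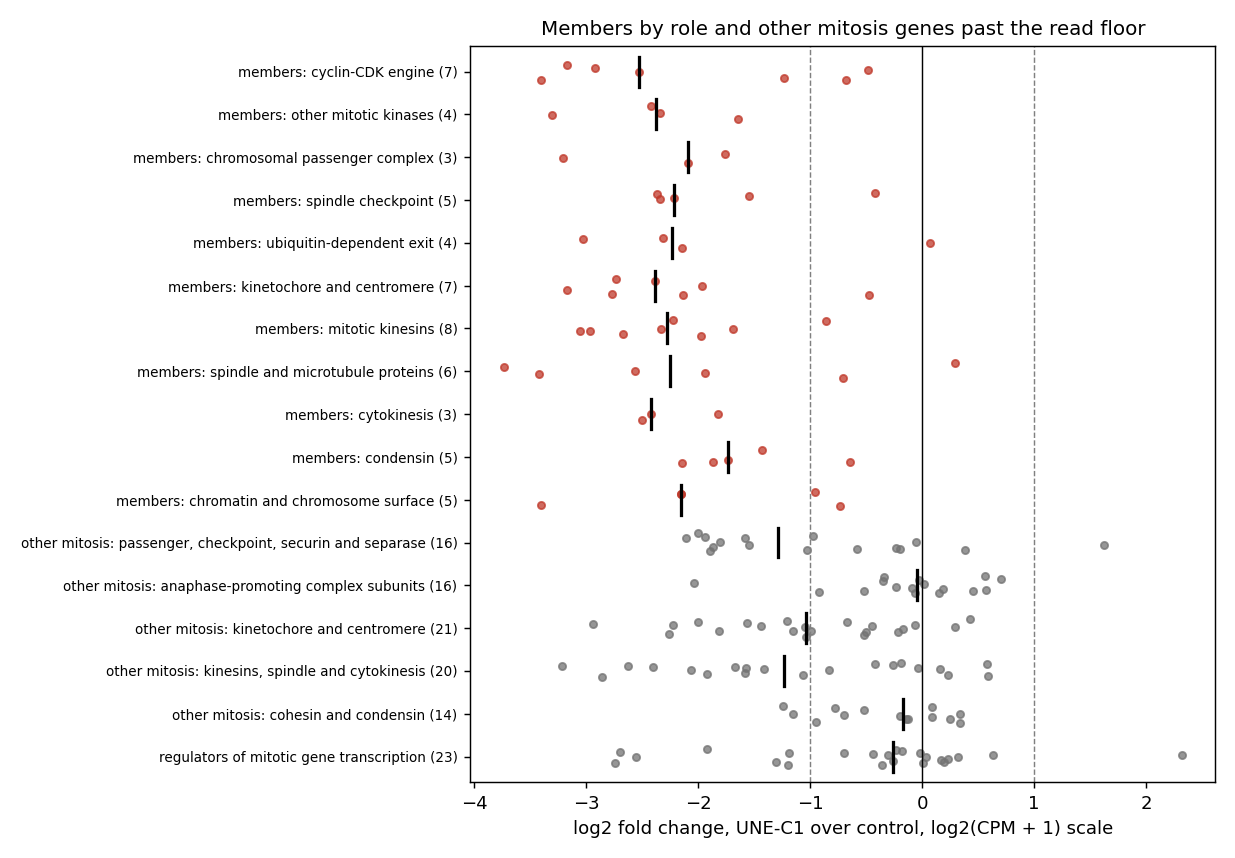
Log2 fold change, UNE-C1 over control on the log2(CPM + 1) scale, of each gene past the floor, with the 57 genes by role in red, other mitosis lists and regulators in grey, and the number of genes in brackets. Black bars are list medians, which lie between -2.53 and -1.74 for the 11 roles, and dashed lines mark 2-fold; the points right of 1 are Pttg1 and Cdkn1a.

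Regulators of mitotic gene transcription differed from gene to gene. Of 23 regulators past the floor, 7 were at least 2-fold lower and 1 at least 2-fold higher (median -0.26), beside 9.42% and 9.31% of all genes, and 4 of the 23 passed the floor in the control library only. Foxm1, the activator of G2 and mitosis genes, had 6 reads in the UNE-C1 library and 123 in the control library, 17.4-fold lower (7.76 to 48.3), and its partner in that role Mybl2, which encodes B-Myb, 9 and 51. The repressors E2f7 and E2f8 had 2 and 26 reads in the UNE-C1 library, against 107 and 301 in the control library. E2f2 was 4.01-fold lower (3.41 to 4.75). The activator E2f1 had 500 and 585 reads in the UNE-C1 and the control library, a ratio of 1.01 (0.893 to 1.14). The pocket protein Rb1 had a ratio of 0.987 (0.876 to 1.11), and Rbl2, which encodes p130 of the DREAM repressor complex, 0.805 (0.723 to 0.897). The NF-Y subunits that bind CCAAT, Nfya, Nfyb and Nfyc, had log2 fold changes of 0.23, 0.17 and 0.04. Cdkn1a, which encodes the CDK inhibitor p21, was the highest of the list, at 1527 CPM in the UNE-C1 library and 305 CPM in the control library, 5.0-fold higher (4.85 to 5.16). Trp53, the best known activator of p21 transcription, was 2.37-fold lower (2.01 to 2.81). These are RNA levels, and whether any regulator bears on another or on the mitotic genes was not tested.

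**Figure D5:**
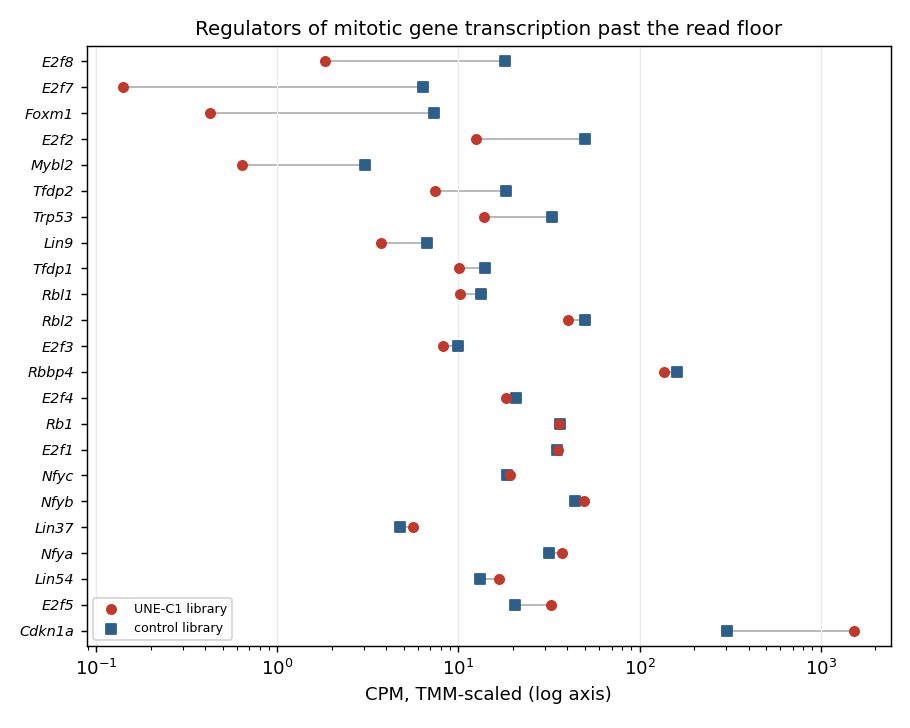
Level of 23 regulators of mitotic gene transcription in the UNE-C1 library (red circles) and the control library (blue squares), in CPM on a log axis, ordered by log2 fold change. E2f8, E2f7, Foxm1 and E2f2 are lowest relative to the control library, and Cdkn1a, at 1527 CPM in the UNE-C1 library and 305 CPM in the control library, is at the other end.

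Markers of some other cells were also lower in the UNE-C1 library. All 10 mature neutrophil markers in the files had negative log2 fold changes, 9 of them at least 2-fold lower beside 9.42% of all genes, 2 of the 10 passed the floor in the control library only, and they summed to 3212 CPM in the UNE-C1 library and 8315 CPM in the control library. Of 7 markers of granulocyte and monocyte progenitors past the floor, 4 were at least 2-fold lower. However, 6 of the 7 passed it in the control library only and so had to have fewer reads in the UNE-C1 library. All 9 of the list summed to 19.1 CPM in the UNE-C1 library and 48.0 CPM in the control library. Elane, made in dividing granulocyte precursors, had 6 reads in the UNE-C1 library and 106 in the control library, and Mpo 13 and 95. These 2 had the lowest fold changes of the list. The 3 past the floor that were not 2-fold lower were Cd34 at 45 and 102 reads, Myb at 43 and 83 and Cebpe at 95 and 138. Mast cell and basophil markers summed to 25 and 45.3 CPM in the UNE-C1 and the control library. Erythroid markers were not lower, with sums of 7.90 and 6.75 CPM, on few reads (112 and 113). Sums of the dendritic cell list (14070 and 15206 CPM) and of the macrophage and monocyte list (4661 and 4213 CPM) were closer between the UNE-C1 and the control library, but single markers differed in both directions. After UNE-C1, Fcgr1 was 12-fold, Ly6c2 3.34-fold and Adgre1 3.00-fold higher, and Mrc1 13.7-fold and Ccr2 5.33-fold lower. On the dendritic cell list, Cd86 was 6.32-fold higher and Itgax 3.08-fold lower. The part of these cells in the mitotic values was not tested.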

How the data were processed

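RNA of 2 libraries, 1 per group, was read near the 3' end of transcripts with a QuantSeq kit from 500 ng of total RNA, per the labels' protocols, so that reads do not scale with transcript length. The deposited values are raw counts of reads for each gene symbol, whole numbers that sum to different totals. Bowtie2, edgeR and the mm10 build are listed in the submitters' processing notes; as for the counting tool, annotation, strand setting and multiply mapped reads, these were not given in the sources used here. The 35 repeated symbols were summed.

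Counts were scaled to CPM with TMM (edgeR 4.0.16, R 4.3.3; factors 0.888 for UNE-C1 and 1.13 for control). The pseudocount was 1 CPM. Ratios carry exact conditional binomial 95% intervals (scipy 1.17.1), and pairs of genes exact conditional intervals of the odds ratio. PCR copies cannot be told from molecules, as no molecular identifiers are named. The floor of 50 reads equals 3.52 CPM in the UNE-C1 and 2.99 CPM in the control library.

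Members and lists were chosen with earlier results of these data known. Every member was named; of the other lists, up to 4 genes with the lowest fold change and any at least 2-fold higher were, beside regulators. Incenp, Espl1, Fzr1, the condensin II subunits, overlapping genes, the named cell type markers and the 24 pairs were chosen after values were seen. Promoter windows are from RefSeq (GRCm38.p6), with the first listed window of each gene. Alternatives were total counts, DESeq2 1.42.0 size factors, pseudocounts of 0.1 and 5 CPM and other floors.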

Additional observations from a re-analysis of the deposited data

How the results depend on the processing

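The count of 46 genes at least 2-fold lower was 51 with total counts, 46 with DESeq2 size factors, 46 and 37 with pseudocounts of 0.1 and 5 CPM, 48 of 60 with no floor, 41 of 52 with a floor of 50 reads in the mean of both libraries, 26 of the 35 genes left by a floor of 200 reads, and 13 of the 24 left by a floor of 50 reads in both libraries, a setting chosen after seeing the data; the last 2 test fewer genes. The count at least 2-fold higher was 0 under each of these settings. The median log2 fold change of -2.15 was -2.47 with total counts, -2.66 and -1.25 with pseudocounts of 0.1 and 5 CPM, and -1.48 with 50 reads in both libraries. Tpx2 and Ube2s turned to -0.028 and -0.26 with total counts, and no other of the 57 genes changed sign under the scalings and pseudocounts. The depth leaves 12 of the 57 genes at 10 or fewer UNE-C1 reads, where intervals are wide. No paired analysis was possible because each group holds 1 library, and no library could be left out.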
